A study of Mus musculus with 6 samples.

Results

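Adding the caspase inhibitor z-VAD-fmk to TNF-α and cycloheximide was examined in mouse embryonic fibroblasts by comparing the TCZ with the TC libraries, 4 of the 6 libraries of the series, over all genes. TC cells had received TNF-α, an inflammatory cytokine, with cycloheximide, a blocker of translation, and TCZ cells had received both agents plus z-VAD-fmk. A control group was given phosphate-buffered saline. The cells were C57BL/6 fibroblasts at passages 5 to 7, and polyadenylated RNA was sequenced from 2 libraries per group. TNF-α and cycloheximide were thus present on both sides of the comparison, which isolates the addition of z-VAD-fmk and not the response to TNF-α. No group received z-VAD-fmk alone. The labels state neither doses nor times. The series title names apoptosis and necroptosis, and nothing in the files measured cell death.

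As background, TNF-α bound to its receptor TNFR1 assembles a complex around RIPK1 that switches on NF-kB target genes. When translation is blocked, short-lived protective proteins such as cFLIP are lost and caspase-8 can start apoptosis. Active caspase-8 also cuts RIPK1 and RIPK3. With caspases inhibited, RIPK1 and RIPK3 can instead activate MLKL, which ruptures the plasma membrane in necroptosis. These steps act on proteins, and the values here are of RNA.

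Of the 48897 genes in the table, 18563 had enough counts to be tested. Between TC and TCZ, 10414 genes passed edgeR's quasi-likelihood test at a Benjamini-Hochberg adjusted p of 0.05, which is 56.1% of those tested. Of these, 5235 (28.2%) were higher and 5179 (27.9%) lower in TCZ. Changes of at least 2-fold numbered 2149 (11.6%) upward and 2178 (11.7%) downward. The median log2 change over all genes tested was 0.02, so list medians below can be read against a value close to 0. Counts of rises and falls in the lists can be read against the shares of 28.2% and 27.9%. The libraries of TC and TCZ did not overlap for 14571 genes (78.5%). Levels are counts per 1000000 (CPM) scaled by TMM, a correction for library composition, and are given for the libraries of a group in the order of their numbers. Whether libraries with the same treatment were grown as separate cultures is not stated, so the p-values reflect only library-to-library spread, which may be technical. In bulk RNA, fewer cells of a type and less RNA per cell cannot be told apart.

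Total counts ranged from 24922627 to 52909926 per library. Control 2 and TCZ 2 were the shallowest and differed from the others in some small structural RNAs, TCZ 2 more so. Rnu1a1, of the U1 spliceosomal particle, held 3 counts in control 2 and 1 in TCZ 2, against 165 to 274 in the other libraries. For Rn7s2, an RNA of the signal recognition particle, TC held 9001 and 10014 counts, TCZ 1 held 9484 and TCZ 2 held 1, while control 1 held 8258 and control 2 held 3379. The fibroblast collagen gene Col1a1 was high throughout, at 6945 and 7316 CPM in TC and at 11404 and 10321 in TCZ. The 12 leukocyte markers tested summed to between 15.1 and 17.7 CPM in TC and between 30.3 and 34.3 in TCZ, and the T cell marker Cd3e was too low to be tested.

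**Figure D1:**
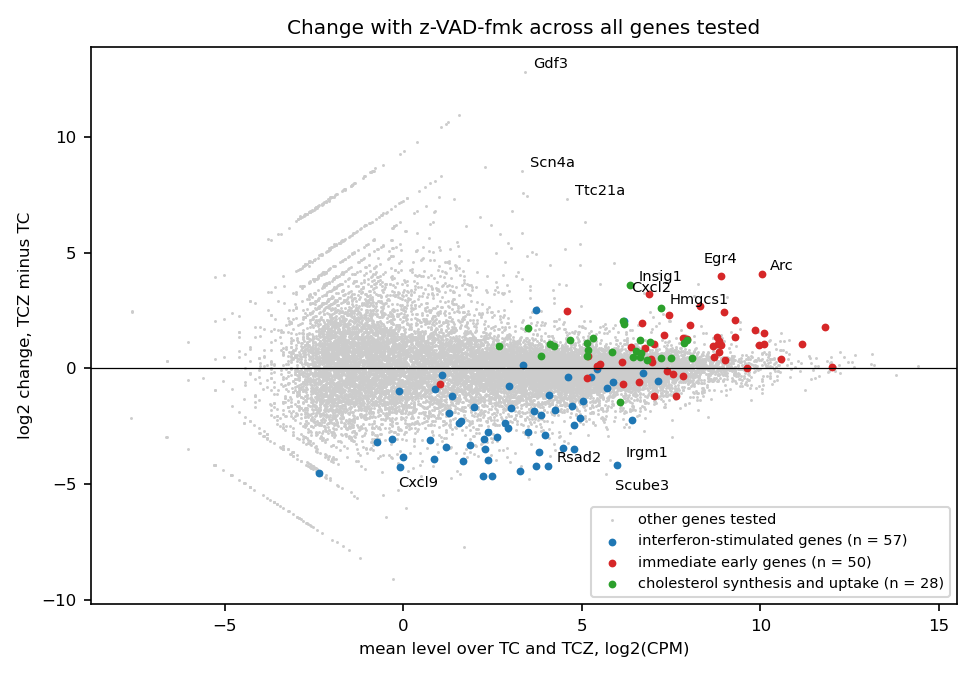
Log2 change with z-VAD-fmk (TCZ minus TC) against the mean level of each gene over TC and TCZ, in log2 CPM, with 3 gene lists coloured (2 tested genes without a count in TC and TCZ are not drawn). Interferon-stimulated genes lie mostly below 0, immediate early and cholesterol genes mostly above it, while Gdf3 marks the top of the range among the labelled genes.

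Interferon-stimulated genes were lower with z-VAD-fmk as a group. They encode antiviral effectors and sensors that signalling from interferon receptors is known to switch on. Of 57 tested, 50 fell and 2 rose, with a median log2 change of -2.38, and 43 of the 50 fell at least 2-fold. Summed over the list, the level was 1548 and 1512 CPM in TC, 742 and 688 in TCZ, and 582 and 536 in control. The TCZ libraries therefore lay between control and TC, nearer to control. Without control 2 and TCZ 2 the list had 47 falls and 2 rises.

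Among its members, Irgm1, an immunity-related GTPase, had 120 and 121 CPM in TC, 6.35 and 6.95 in TCZ, and 45.0 and 42.7 in control (log2 change -4.19 ± 0.09 SE, adjusted p = 6.94e-19). The libraries with z-VAD-fmk were thus also below the control libraries. Rsad2, which encodes the antiviral enzyme viperin, had 30.9 and 32.5 CPM in TC, 1.28 and 2.40 in TCZ, and under 1 in both control libraries (-4.22 ± 0.19, adjusted p = 5.84e-14). Ifit1, a sensor of foreign RNA caps, had 39.4 and 41.5 CPM in TC and 3.81 and 3.56 in TCZ (-3.44 ± 0.12, adjusted p = 6.12e-16). Ifit and immunity-related GTPase genes are families of similar sequence, so reads may be split between copies, and Ifit1 also overlapped Ifit1bl1 on the other strand. The largest falls in the list by log2 change were Cmpk2, a nucleotide kinase, at -4.67, and Iigp1, another GTPase, at -4.64.

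The effectors named above were picked for large falls, so the signalling genes of the list cannot be ranked against them. Irf9 had 41.0 and 39.2 CPM in TC and 13.5 and 12.4 in TCZ (-1.62 ± 0.09, adjusted p = 2.61e-12). Irf7 changed by -1.72 and Stat2 by -0.39. Ddx58, the RNA sensor RIG-I, fell from 142 and 137 CPM to 29.9 and 28.7. The 2 members that rose were Irf1, with 26.5 and 30.9 CPM in TC and 127 and 109 in TCZ (2.04 ± 0.09, adjusted p = 3.52e-14), and Isg20, an exonuclease, with a change of 2.51. IRF1 is a transcription factor that NF-kB is also known to induce. The interferon gene Ifnb1 had a mean of 0.235 CPM in TC and 0.124 in TCZ and did not pass the test.

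Promoters of 3 of these genes are shown because each fell strongly and holds the interferon-stimulated response element (ISRE), searched as GAAA, any 2 bases and GAAA on both strands and given in capitals. Each run is the 250 bases before the start site in RefSeq on GRCm38.p6, 5′ to 3′ on the gene's strand. Ifit1 lies at chr19:34640639-34640888 on the plus strand, and Rsad2 at chr12:26456453-26456702 and Irgm1 at chr11:48871421-48871670 on the minus strand.
Ifit1: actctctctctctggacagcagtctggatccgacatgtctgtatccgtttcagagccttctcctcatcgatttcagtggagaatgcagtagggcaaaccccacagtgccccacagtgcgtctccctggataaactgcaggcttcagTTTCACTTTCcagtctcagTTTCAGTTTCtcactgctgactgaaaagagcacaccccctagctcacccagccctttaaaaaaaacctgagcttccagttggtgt
Rsad2: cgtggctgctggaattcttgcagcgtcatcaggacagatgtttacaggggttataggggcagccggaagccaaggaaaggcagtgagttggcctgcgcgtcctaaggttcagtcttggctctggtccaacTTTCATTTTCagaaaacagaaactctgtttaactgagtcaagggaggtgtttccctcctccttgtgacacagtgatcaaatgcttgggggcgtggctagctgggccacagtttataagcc
Irgm1: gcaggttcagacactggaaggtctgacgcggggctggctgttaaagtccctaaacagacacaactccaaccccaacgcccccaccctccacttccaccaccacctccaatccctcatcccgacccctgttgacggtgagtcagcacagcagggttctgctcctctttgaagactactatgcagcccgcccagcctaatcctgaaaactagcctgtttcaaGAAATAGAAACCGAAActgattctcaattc
Ifit1 held 2 matches, the nearer from base -85 to -76 before its start site, Rsad2 held 1 from -120 to -111, and Irgm1 held 2 that overlap, from -30 to -15. Of 32851 promoters of 300 bases in the same RefSeq table, 3.44% held a match. A share over the list is void, since 43 of its 57 tested genes (75.4%) had a promoter in the table. The promoters shown were picked from those that held a match, out of 11 motifs searched. A match describes letters and not a binding site.

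Genes of antigen presentation by MHC class I, many of which interferons also induce, moved less. Of 19 tested, 9 fell and 3 rose, with a median of -0.32. The summed level went the other way, from 2634 and 2588 CPM in TC to 3462 and 3223 in TCZ. In control it was 2903 and 2713. Nlrc5, a transactivator of MHC class I genes, fell from 4.76 and 4.69 CPM to 0.887 and 0.662 (-2.56 ± 0.26, adjusted p = 3.48e-08), and Tap1, a peptide transporter, changed by -1.03. The class I heavy chain H2-K1 had 134 and 146 CPM in TC against 151 and 121 in TCZ and did not pass, nor did its partner B2m. The 3 rises were Psme1, a proteasome activator, and the endoplasmic reticulum (ER) chaperones Pdia3 and Calr.

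Cytokine, chemokine and adhesion genes split. Of 37 tested, 9 rose and 18 fell, with a median of -0.44, and 6 of the rises and 13 of the falls were at least 2-fold. CXC chemokine genes on chromosome 5 lay at both ends of this list. Cxcl2 had 42.3 and 47.2 CPM in TC, 610 and 513 in TCZ, and under 0.1 in control (3.65 ± 0.09, adjusted p = 6.54e-18). Cxcl1 rose from 112 and 114 CPM to 1035 and 891 (3.10 ± 0.08, adjusted p = 1.61e-17). CXCL1, CXCL2, CXCL3 and CXCL5 all attract neutrophils, and the latter pair moved the other way. Cxcl3 fell from 34.1 and 36.8 CPM to 3.65 and 2.15 (-3.53 ± 0.15, adjusted p = 2.38e-14). Cxcl5 fell from 39.8 and 40.1 CPM to 3.44 and 2.81 (-3.64 ± 0.12, adjusted p = 2.73e-16), below its control levels of 8.84 and 8.92.

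The interferon-inducible chemokines also differed among themselves. CXCL9, CXCL10 and CXCL11 share the receptor CXCR3. Cxcl9 fell from 5.40 and 5.39 CPM to 0.247 and 0.248 (-4.43 ± 0.36, adjusted p = 8.61e-10). Cxcl11, which the table annotates as a transcribed pseudogene, had 631 counts over the TC libraries and 2 over the TCZ libraries, a ratio of 233 with a 95% counting interval from 64.3 to 1931. Cxcl10 had 166 and 170 CPM in TC and 182 and 152 in TCZ and did not pass (-0.01 ± 0.08, adjusted p = 0.958).

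Among adhesion molecules, Sele, which encodes E-selectin, a receptor that slows leukocytes on the vessel wall, had 1.44 and 1.07 CPM in TC and 48.8 and 40.5 in TCZ (5.16 ± 0.15, adjusted p = 3.64e-17). Vcam1 rose from 611 and 642 CPM to 1312 and 1214, while Icam1 fell from 438 and 483 to 297 and 225. Both encode ligands of leukocyte integrins. Among cytokines, Il6 fell from 38.2 and 37.1 CPM to 10.2 and 11.0, and the granulocyte factor Csf3 changed by -3.38. The related factor Csf2 rose by 1.05 and the monocyte attractant Ccl2 by 0.83.

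**Figure D2:**
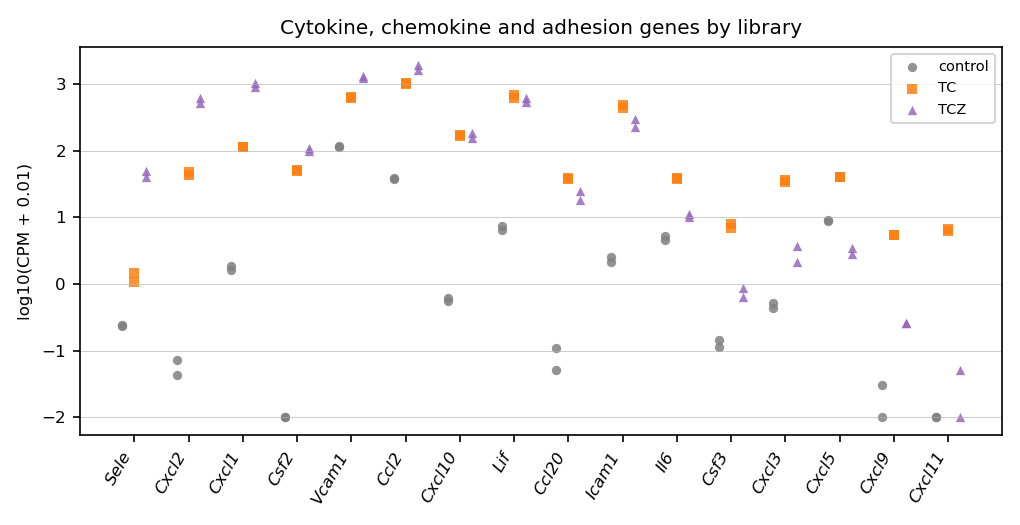
CPM of each library on a log10(CPM + 0.01) scale for chemokine, cytokine and adhesion genes, ordered by the change from TC to TCZ and chosen after their values were seen. Cxcl1 and Cxcl2 sit higher in TCZ than in TC and Cxcl3 and Cxcl5 lower, with no overlap between the libraries of TC and TCZ for these genes.

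The promoters of Cxcl2 and Cxcl3 are shown because these paralogs on the same chromosome changed in opposite directions. Cxcl2 lies at chr5:90903649-90903898 and Cxcl3 at chr5:90785851-90786100, both on the plus strand of GRCm38.p6, and capitals mark the kB site, the motif of NF-kB.
Cxcl2: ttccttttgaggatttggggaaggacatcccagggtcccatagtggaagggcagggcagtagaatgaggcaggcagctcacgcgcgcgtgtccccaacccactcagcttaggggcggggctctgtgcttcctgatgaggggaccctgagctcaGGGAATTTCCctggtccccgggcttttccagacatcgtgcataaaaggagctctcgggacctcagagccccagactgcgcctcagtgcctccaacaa
Cxcl3: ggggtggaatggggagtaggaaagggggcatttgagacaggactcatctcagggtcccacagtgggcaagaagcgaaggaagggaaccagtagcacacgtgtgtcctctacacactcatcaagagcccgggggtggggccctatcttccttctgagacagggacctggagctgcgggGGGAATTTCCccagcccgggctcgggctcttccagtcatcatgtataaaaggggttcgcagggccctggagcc
Both windows held 1 match with the same letters, GGGAATTTCC, from -97 to -88 in Cxcl2 and from -73 to -64 in Cxcl3. Of the 32851 promoters, 5.81% held a kB site on either strand. Reads that fit both paralogs may have been handled in ways the sources do not state.

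NF-kB subunits and feedback inhibitors moved in both directions. Of 25 tested, 11 rose and 7 fell, with a median of 0.05. This median was near 0 and changed sign with the libraries used, from -0.10 without TCZ 1 and -0.03 without TC 1 to 0.16 without TCZ 2, and also 0.16 without control 2 and TCZ 2. Among the inhibitors, 2 that NF-kB is known to induce rose. Nfkbia, which encodes IκBα, had 315 and 341 CPM in TC, 1137 and 979 in TCZ, and 13.0 and 11.9 in control (1.69 ± 0.08, adjusted p = 1.64e-13). Tnfaip3, the ubiquitin-editing enzyme A20, rose from 485 and 498 to 1566 and 1350 (1.57 ± 0.08, adjusted p = 2.36e-13). The subunit gene Rel also rose, by 1.69, whereas Nfkb1 had a change of -0.01 and did not pass. Nfkbie, the gene of IκBε, fell from 101 and 103 CPM to 32.0 and 30.5 (-1.70 ± 0.07, adjusted p = 3.7e-14), and Tnip3 changed by -1.88 at levels under 2 CPM in TC.

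Genes of the TNF receptor complex and the necrosome either fell or did not pass, apart from Tnf itself. Of 38 tested, 17 fell, 1 rose and 20 did not pass, with a median of -0.21. At the receptor, Tnfrsf1a had 61.6 and 59.1 CPM in TC, 24.8 and 25.2 in TCZ, and 103 and 100.5 in control (-1.27 ± 0.08, adjusted p = 5.61e-12). Mlkl, the executor of necroptosis, fell from 23.7 and 19.8 CPM to 7.65 and 8.19, below its control levels of 15.2 and 15.8 (-1.46 ± 0.11, adjusted p = 3.78e-10). Casp8 fell from 30.2 and 30.8 to 16.4 and 18.2 (-0.83 ± 0.09, adjusted p = 7.31e-08). The kinases that link receptor and executor did not pass: Ripk1 had 32.5 and 29.3 CPM in TC and 28.5 and 31.5 in TCZ (-0.05 ± 0.08, adjusted p = 0.637), and Ripk3 had 106 in both TC libraries and 102 and 90.3 in TCZ (-0.14 ± 0.08, adjusted p = 0.141).

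Ripk3 passed with library totals alone as the scale (-0.19, adjusted p = 0.00587), without TCZ 1 and at equal depth. The adaptor Fadd and the caspase-8 inhibitor Cflar did not pass either, at -0.18 and -0.11, although Cflar did with library totals alone (-0.16, adjusted p = 0.00672). Traf1, an NF-kB target and adaptor of the TNF receptors, fell from 84.6 and 90.6 CPM to 16.3 and 13.4 (-2.54 ± 0.12, adjusted p = 2.39e-13). DESeq2 gave Traf1 a change of -2.55 that did not pass (adjusted p = 0.123). The 1 gene that rose was Tnf, from 1.28 and 1.85 CPM to 8.80 and 8.27 (2.45 ± 0.24, adjusted p = 1.95e-08).

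Apoptosis genes also split, with 8 rises and 12 falls among 29 tested and a median of -0.18, which was -0.10 without TC 2 and -0.08 without TCZ 2. The share of rises was near the 28.2% over all genes tested. Bcl2l1, whose main product is the protective protein BCL-XL, fell from 127 and 129 CPM to 25.3 and 22.5, against 97.4 and 87.6 in control (-2.41 ± 0.08, adjusted p = 9.51e-16). Mcl1, a protective relative, rose from 324 and 321 CPM to 600 and 567 (0.86 ± 0.07, adjusted p = 1.48e-09). Bid, which caspase-8 cuts to engage mitochondria, changed by -1.16.

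Casp6, an effector caspase gene, had 1.05 and 1.07 CPM in TC, 5.92 and 6.00 in TCZ and 9.75 and 9.89 in control (2.49 ± 0.19, adjusted p = 2.68e-10). The initiator Casp9 was lower, at -0.52, with an adjusted p of 0.0142. This call did not hold without control 2 and TCZ 2, where the change was -0.32 (adjusted p = 0.145), and without TCZ 1 it was -0.85. Dffb, the nuclease that cuts DNA in apoptosis, was at 0.783 and 0.463 CPM in TC and 0.124 and 0.0827 in TCZ, a change of -2.48.

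Of 10 pyroptosis and inflammasome genes tested, 3 fell and 1 rose, although 3 rose without TC 2 and 2 without TCZ 1. The share that fell was near the 27.9% over all genes tested. Gsdmd, which encodes the pore protein gasdermin D, fell from 30.0 and 33.6 CPM to 16.1 and 13.3 (-1.10 ± 0.10, adjusted p = 1.07e-08). Casp4, the caspase that mouse work calls caspase-11, changed by -0.89. Pycard, the inflammasome adaptor ASC, rose from 0.515 and 0.262 CPM to 2.62 and 2.94, and it overlapped an unnamed gene on the other strand that also differed, so its reads are uncertain.

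Immediate early genes, which cells transcribe at once after a stimulus without new protein, were higher with z-VAD-fmk. Cycloheximide alone is known to raise their RNA, and it was present in both TC and TCZ. Of 50 tested, 37 rose and 8 fell, with a median of 1.01, and 26 of the rises were at least 2-fold. The summed level was 17605 and 18279 CPM in TC, 37877 and 34760 in TCZ, and 5545 and 5047 in control. The groups thus ran from control through TC to TCZ without overlap.

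Arc, known from synapses, had 116 and 120 CPM in TC, 2132 and 1863 in TCZ, and 2.51 and 2.49 in control (4.09 ± 0.08, adjusted p = 5.56e-19). Egr4, a zinc-finger factor, had 47.9 and 63.3 CPM in TC and 967 and 819 in TCZ (4.01 ± 0.11, adjusted p = 2.83e-17). Among AP-1 genes, Fosb changed by 3.20, Fos by 2.32, Jund by 1.97, Junb by 1.54 and Jun by 1.03, while Fosl2 had a change of 0.01 and did not pass. Egr1, another factor of the Egr4 family, rose from 1572 and 1634 to 5678 and 5351. The members that fell include Zfp36l2, at -1.21, and the clock gene Per1, at -1.19.

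Zfp36, which encodes tristetraprolin, a protein that speeds decay of cytokine RNAs, had 151 and 165 CPM in TC and 906 and 817 in TCZ (2.44 ± 0.08, adjusted p = 2.73e-16). Its relatives Zfp36l1 and Zfp36l2 were lower, at -0.58 and -1.21. The promoter of Zfp36, at chr7:28379229-28379478 on the minus strand, is shown because it holds a CArG box, the motif of serum response factor, in capitals.
Zfp36: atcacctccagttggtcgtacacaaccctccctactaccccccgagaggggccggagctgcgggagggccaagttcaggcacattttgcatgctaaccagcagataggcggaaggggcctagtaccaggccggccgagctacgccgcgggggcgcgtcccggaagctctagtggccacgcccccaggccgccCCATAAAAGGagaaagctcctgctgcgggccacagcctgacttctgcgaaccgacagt
The match runs from -58 to -49 before the start site, and 1.63% of the 32851 promoters held 1 or more. In the immediate early list the promoters of Dusp5, Rnd3 and Srf also held a match, and Zfp36 was picked after its values were seen. Srf, the gene of serum response factor, was itself lower in TCZ, at -0.69.

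Cholesterol synthesis and uptake genes were higher with z-VAD-fmk. SREBP2 is known to drive these genes when sterols in the ER are low. Of 28 tested, 27 rose and 1 fell, with a median of 0.95, and 13 rises were at least 2-fold. The summed level was 1759 and 1761 CPM in TC, 3435 and 3163 in TCZ, and 3195 and 2994 in control, so the TCZ libraries lay near control. These counts did not move under any alternative fit, with 27 rises and 1 fall in each.

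Insig1, an ER protein that holds back SREBP processing and is itself an SREBP target, had 12.8 and 12.2 CPM in TC, 163 and 140 in TCZ, and 108 and 101 in control (3.60 ± 0.09, adjusted p = 6.54e-18). Hmgcs1, an early enzyme of the pathway, rose from 43.6 and 40.3 CPM to 260 and 249 (2.60 ± 0.08, adjusted p = 1.26e-16). Not every enzyme came near control: Sqle had 29.4 and 28.7 CPM in TC, 42.7 and 40.3 in TCZ, and 146 and 144 in control. The 1 fall was Insig2, from 99.5 and 96.4 CPM to 35.2 and 35.4, against 38.2 and 35.4 in control (-1.47 ± 0.07, adjusted p = 4.15e-13).

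Fatty acid synthesis genes, targets of the related factor SREBP1, had 10 rises and 2 falls among 17 tested and a median of 0.50. Without any 1 of TC 1, TCZ 1 and TCZ 2 there was 1 fall. Elovl6, which lengthens fatty acids, rose from 15.2 and 13.2 CPM to 49.6 and 50.1, against 73.5 and 75.3 in control (1.81 ± 0.08, adjusted p = 8.71e-14). The desaturase gene Scd2 rose by 1.67 but stayed at 123 and 126 CPM against 789 and 753 in control.

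ER chaperone genes were also higher, with 22 rises and 4 falls among 26 tested and a median of 0.61. Their products fold secreted proteins, and the unfolded protein response raises them through ATF6 and XBP1. Hspa5, the chaperone BiP, had 798 and 783 CPM in TC, 2337 and 2215 in TCZ, and 1358 and 1278 in control (1.53 ± 0.07, adjusted p = 9.9e-14). Sdf2l1 and Dnajb9, which work with it, changed by 1.75 and 1.63. The regulator Xbp1 was among the falls, from 20.3 and 21.7 CPM to 12.6 and 15.7, against 111 and 101 in control (-0.59 ± 0.10, adjusted p = 2.61e-05).

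The Hspa5 promoter, at chr2:34771840-34772089 on the plus strand, is shown for its ER stress response element (ERSE), searched as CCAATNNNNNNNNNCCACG on both strands and given in capitals.
Hspa5: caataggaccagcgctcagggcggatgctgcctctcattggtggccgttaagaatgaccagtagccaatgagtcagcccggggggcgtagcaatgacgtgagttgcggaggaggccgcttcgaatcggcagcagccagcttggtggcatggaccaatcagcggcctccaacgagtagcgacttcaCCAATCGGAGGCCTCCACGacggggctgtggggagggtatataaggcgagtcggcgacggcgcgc
The match runs from -65 to -47. Of the 26 genes tested, 22 (84.6%) had a promoter in the table, and 9 of these held an ERSE, against 0.119% of the 32851 promoters. The 9 were Calr, Canx, Creld2, Derl3, Dnajc3, Hsp90b1, Hspa5 and Pdia6, which rose, and Syvn1, which fell. Members with and without the element moved alike. The median log2 change was 0.610 for the 9 with it and 0.608 for the 13 without, of which 11 rose. This motif was added to the search after values had been seen, and the list holds genes known as targets of the element.

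Targets of ATF4, the factor that answers amino acid shortage and ER stress, had 21 rises and 3 falls among 31 tested, with a median of 0.54. Slc7a11, the cystine transporter gene that NRF2 also drives, rose from 2.90 and 3.22 CPM to 10.4 and 13.7 (1.95 ± 0.14, adjusted p = 1.36e-10). Mthfd2, a mitochondrial folate enzyme, rose from 40.4 and 38.7 CPM to 114 and 108, against 129 and 113 in control. Atf4 itself was lower, at -0.23, and Ddit3, which encodes CHOP, was higher by 0.20.

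NRF2 targets and metallothioneins, which handle oxidants and metals, had 23 rises and 2 falls among 26 tested, with a median of 0.63. There was 1 fall without any 1 of the TC and TCZ libraries. Srxn1, which repairs peroxiredoxins, rose from 68.2 and 67.8 CPM to 291 and 266, above 78.2 and 75.7 in control (2.04 ± 0.07, adjusted p = 2.24e-15). Hmox1, Gclm and Mt2 rose by 0.86, 0.99 and 1.26. The gene of NRF2, Nfe2l2, was lower, at -0.34.

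Heat shock genes had 14 rises and 2 falls among 24 tested, with a median of 0.23. With library totals alone 5 fell, and 1 fell without control 1, control 2, TC 1 or TCZ 2. The stress-induced Hsp70 genes stood at the top. Hspa1a rose from 7.99 and 9.28 CPM to 58.0 and 52.0 (2.67 ± 0.12, adjusted p = 8.77e-14) and its near-identical copy Hspa1b changed by 1.88, so reads may be split between them. Hspa8, the constitutive Hsp70 gene, had 357 and 331 CPM in TC and 418 and 334 in TCZ and did not pass.

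**Figure D3:**
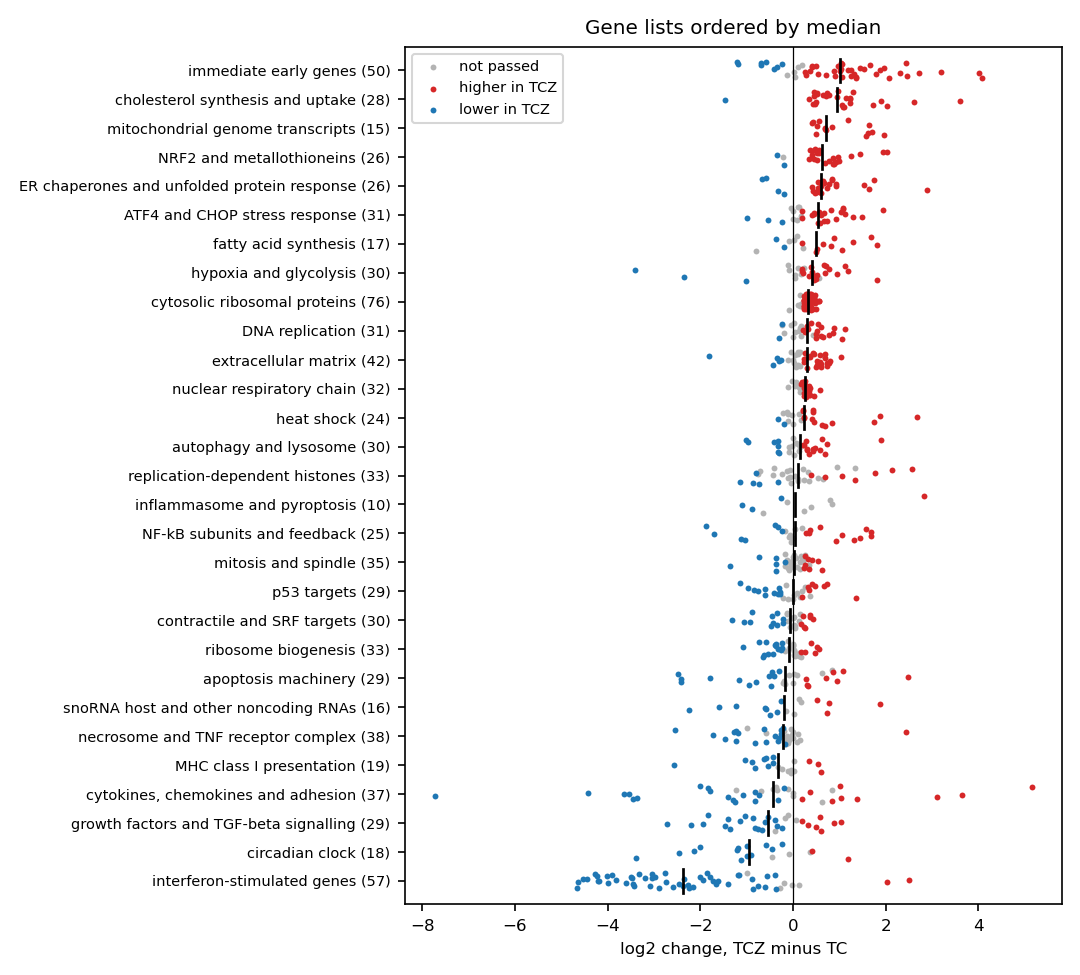
Log2 change (TCZ minus TC) of each tested member of 29 gene lists, with the number tested in brackets, the median as a black bar, and members coloured by whether they passed the test. Lists run from immediate early genes at the top, with a median of 1.01, to interferon-stimulated genes at the bottom, with a median of -2.38.

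Circadian clock genes were mostly lower, with 13 falls and 2 rises among 18 tested and a median of -0.95. Bhlhe41, a repressor of the clock, fell from 48.5 and 54.6 CPM to 5.07 and 4.72, against 7.03 and 6.60 in control (-3.39 ± 0.11, adjusted p = 2.62e-16). Its paralog Bhlhe40 rose from 312 and 301 CPM to 731 and 674 (1.20 ± 0.07, adjusted p = 1.08e-11). The output factor Dbp changed by -2.47 and the repressor Nr1d1 by -1.21. Dbp overlapped Sphk2 on the other strand, which was also lower in TCZ.

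Growth factor and TGF-β signalling genes had 18 falls and 7 rises among 29 tested, with a median of -0.54. Pdgfb, a platelet-derived growth factor gene, had 183 and 193 CPM in TC, 29.4 and 27.5 in TCZ, and under 1 in control (-2.72 ± 0.09, adjusted p = 2.62e-16). Pdgfa changed by -2.19 and the receptor gene Pdgfra by -1.93, whereas Pdgfrb, the other receptor gene, rose by 0.88.

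Several further lists moved by small amounts. Of 76 cytosolic ribosomal protein genes, 67 rose and none fell, with a median of 0.32. The median was 0.19 without TCZ 1 and 0.43 without control 2 and TCZ 2, so its size differed with the libraries used. Of 32 nuclear respiratory chain genes, 24 rose, but 9 did without the low-count filter, and the number also varied with the libraries left out. Their median was 0.25, and 0.31 without control 2 and TCZ 2. DNA replication genes had 18 rises and 2 falls among 31, with Orc1, of the origin recognition complex, at 1.13 and Ccne1, a cyclin gene, at 1.07. No replication gene fell without TC 1 or without TC 2, and 1 fell without control 1, control 2 or TCZ 2. Genes of mitosis had 8 rises and 6 falls among 35, p53 targets 8 and 11 among 29, and contractile genes 7 and 11 among 30. The medians were 0.03, 0.00 and -0.06, and the shares of rises were near or below the 28.2% over all genes tested. With 1 library left out, these medians lay on either side of 0, from -0.15 for p53 targets without TCZ 1 to 0.09 for mitosis genes without TC 1. The rises among mitosis genes ranged from 4 without TC 2 to 14 with a filter of 50 counts in 2 libraries. Contractile genes had 12 rises without control 2 and TCZ 2, and 3 without any 1 of TC 1, TC 2 and TCZ 1.

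Ribosome biogenesis genes had 14 falls and 6 rises among 33, with Polr1b, a subunit of RNA polymerase I, at -1.08 and Wdr43, a processing factor, at -0.74. Replication-dependent histone genes, whose RNA mostly lacks a poly(A) tail, had 7 rises and 5 falls among 33. Their copies are similar and reads may be split between them.

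Other lists held single genes with large changes. Extracellular matrix genes had 24 rises and 5 falls among 42 tested, or 3 falls without TC 1 or TCZ 2, with the collagenase gene Mmp13 up by 1.03 and the gelatinase gene Mmp9 down from 107 and 113 CPM to 34.0 and 27.7. Hypoxia and glycolysis genes had 19 rises and 3 falls among 30. The falls were Pfkfb4, a regulator of glycolysis, at -3.40, Egln3, an oxygen sensor, at -2.35, and Adm, a vasodilator peptide gene, at -1.02. Autophagy and lysosome genes had 14 rises and 7 falls among 30, or 9 rises without TCZ 1, and Ulk1, the kinase that starts autophagy, rose from 19.7 and 22.7 CPM to 83.2 and 74.0. Among 16 snoRNA host and other noncoding genes, 8 fell and 4 rose, or 2 rose without TCZ 1. Neat1, the scaffold RNA of paraspeckles, fell from 301 and 312 CPM to 64.0 and 64.5, against 56.8 and 58.9 in control (-2.25 ± 0.07, adjusted p = 3.73e-16).

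All 15 mitochondrial genome transcripts were higher, with a median of 0.70. COX1, a subunit of cytochrome oxidase, changed by 0.50 and ND1, a subunit of complex I, by 0.69. The largest changes came from transcripts that differed between the TCZ libraries: COX3 had 10.3 and 10.2 CPM in TC, 15.9 in TCZ 1 and 53.6 in TCZ 2, and 18.6 and 57.9 in control. ATP8 showed the same split, with 2.60 CPM in TCZ 1 and 11.0 in TCZ 2. Control 2 and TCZ 2, the libraries low in Rnu1a1, were thus high together, and the part of that difference in these values was not tested. Without control 2 and TCZ 2, 13 of the 15 rose, COX3 changed by 0.64 and ATP8 did not pass (0.66, adjusted p = 0.0932).

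The largest rises by fold, among passing genes that code for protein and averaged 10 CPM or more over TC and TCZ, were led by genes with almost no RNA in TC. Gdf3, a TGF-β family ligand of embryonic cells, was without a count in the control and TC libraries and reached 22.1 and 20.6 CPM with z-VAD-fmk. Against a floor of 3 counts over the TC libraries, it was at least 707-fold higher. Scn4a, the sodium channel of skeletal muscle, had 0.0618 and 0.0402 CPM in TC and 19.2 and 20.9 in TCZ, a log2 change of 8.54. Grm4, a glutamate receptor, changed by 7.46 and Ttc21a, a ciliary protein gene, by 7.32. Gdf3, Scn4a, Grm4 and Ttc21a passed the low-count filter only through their TCZ counts, so no p-values are given for them. Apobec1, a cytidine deaminase that edits RNA, rose from 5.25 and 4.39 CPM to 112 and 115. Gdf3 lies upstream of Apobec1 on the minus strand of chromosome 6, 2376 bases from its annotated start.

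The other large rises were Sele, Map3k15, Mmp25, Tmem95, Arc, Egr4 and Slc8a2, with log2 changes from 3.85 to 5.16. Map3k15, a stress kinase gene, overlapped Pdha1 on the other strand, which had a mean of 221 CPM in TC and 248 in TCZ. Tmem95, known from sperm, had 15.1 and 15.8 CPM in TC and 274 and 263 in TCZ. Further genes known from immune cells rose from near 0: Clec12b was at least 194-fold and Clec9a at least 150.5-fold higher, though these lectin genes overlap each other and Clec12b overlaps Clec1a and Clec1b. The leukocyte integrin genes Itgax and Itgam, neighbours on chromosome 7, rose to means of 3.45 and 4.74 CPM, and no cell source was tested. Of the 12 leukocyte markers tested, 3 rose, 1 fell and 8 did not pass, so most did not share this rise.

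Genes under 1 CPM in TC that rose at least 8-fold numbered 669 of 5767 tested. In the other direction, 262 of 5452 genes under 1 CPM in TCZ were at least 8-fold lower. Genes such as Gdf3, without a count in TC, and Gbp4, without a count in TCZ, passed the low-count filter only through the group where they were high. The filter thus partly sets both shares, and no conclusion is drawn from them. These limits were chosen after values had been seen.

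The largest falls under the same rule were Scube3, Rsad2, Irgm2, Irgm1, S1pr1, Jade2, Cxcl5, Ifit3, Cxcl3, Parp14, Ifit1 and Bhlhe41. Scube3, a secreted protein with EGF-like repeats, had 95.4 and 103 CPM in TC, 4.37 and 3.97 in TCZ, and under 1 in control (-4.55 ± 0.10, adjusted p = 1.59e-18). S1pr1, a receptor for sphingosine 1-phosphate, fell from 103 and 105 CPM to 6.00 and 7.41, below 42.6 and 37.4 in control (-3.98 ± 0.10, adjusted p = 6.68e-18). Jade2, a scaffold of a histone acetyltransferase complex, fell from 31.1 and 33.4 CPM to 2.35 and 2.36, also below control. Gbp4, a guanylate-binding protein gene, had 162 counts over TC and 0 over TCZ, at least 39.9-fold lower. Trim30c had 268 counts in TC 1 and 0 in TC 2 and in TCZ, so its difference rests on 1 library.

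**Figure D4:**
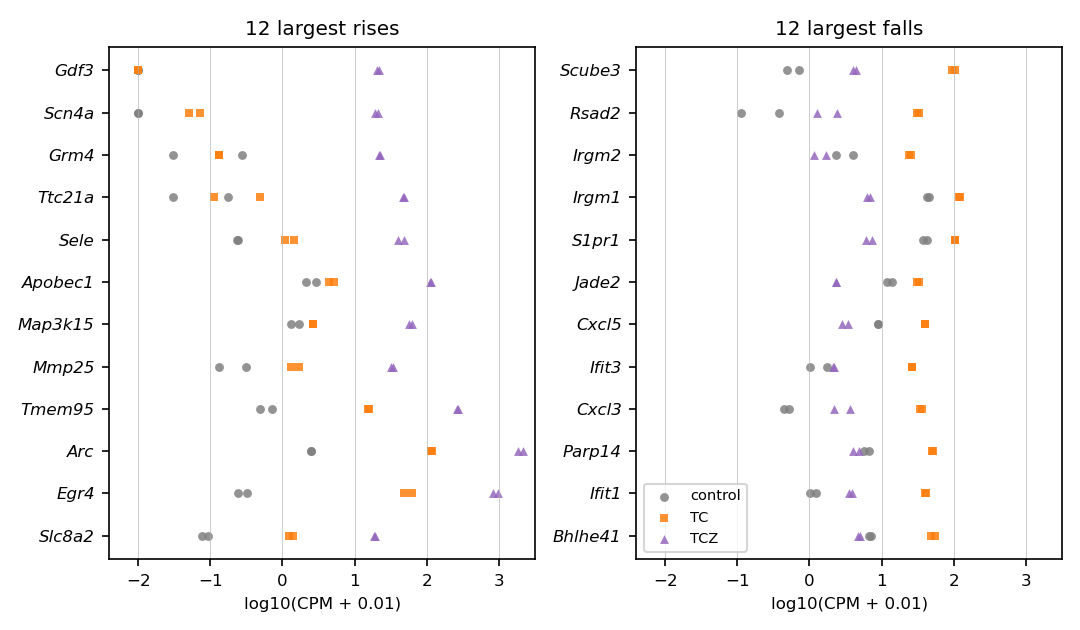
CPM of each library on a log10(CPM + 0.01) scale for the 12 largest rises and 12 largest falls in TCZ against TC, with control libraries for reference. Gdf3 sits at 0 CPM in control and TC, while for Irgm1, S1pr1, Jade2 and Cxcl5 the TCZ libraries lie below control.

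Epithelial genes present at low levels fell with z-VAD-fmk. Of 6 tested markers, 4 fell, and their sum was 82.6 and 75.7 CPM in TC, 17.7 and 13.5 in TCZ, and 19.4 and 16.7 in control. The keratin gene Krt19 had 69.4 and 63.8 CPM in TC and 15.2 and 11.3 in TCZ (-2.30 ± 0.11, adjusted p = 1.75e-13), while the defining marker Epcam stayed under 1 CPM in the mean of each group. Of 13 fibroblast markers, 7 rose and 3 fell, the falls being Pdgfra, Prrx1 and Twist1. Leukocyte markers had 3 rises and 1 fall among 12 tested, endothelial markers 4 and 2 among 7, muscle markers 2 and 2 among 5, neural markers 1 and 2 among 5, and adipocyte markers 2 and 1 among 4. Beside the 28.2% that rose and 27.9% that fell over all genes tested, counts in lists this short say little. No leukocyte marker fell without TC 2 or TCZ 1, 1 endothelial marker fell without any 1 of the TC and TCZ libraries, and 1 adipocyte marker rose without any 1 library other than TC 2. At equal depth 6 leukocyte markers rose. The summed endothelial markers were 148 and 141 CPM in TC and 58.3 and 56.8 in TCZ. Most of this was Kdr, a VEGF receptor gene, with means of 141 and 39.9 CPM, while Pecam1, an adhesion molecule of endothelium, rose from a mean of 0.143 to 10.8 CPM. Cell sources of these RNAs were not tested.

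Gene length moved with direction. Among protein-coding genes, the median length in the table was 3099 bases for the 4395 that rose, 4388.5 for the 4504 that fell and 3361 for the 5482 that did not pass. With these genes in 10 classes by length, 41.6% rose and 13.0% fell in the class of the shortest, and 20.9% rose and 47.1% fell in that of the longest. The share that rose in the shortest class was smaller without TCZ 1. Fewer genes also passed in that fit as a whole, and the part of this in the drop was not tested. The part of length in the changes of the gene lists was not tested.

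**Figure D5:**
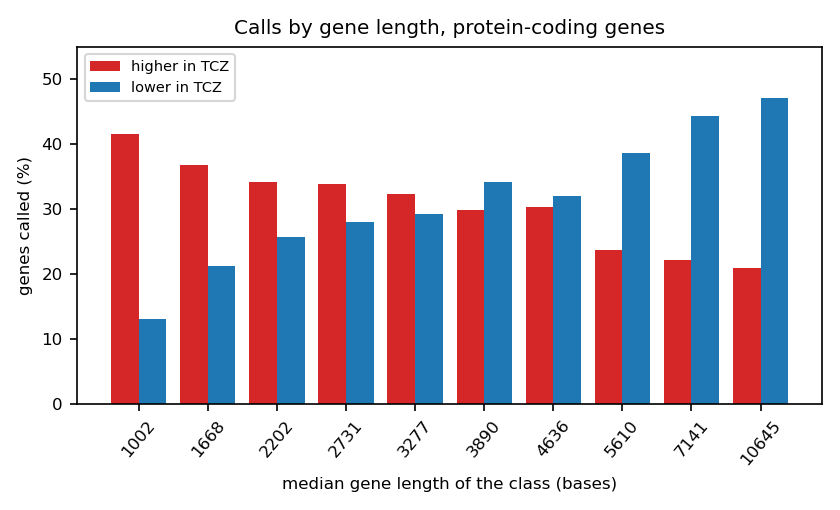
Percent of protein-coding genes higher (red) or lower (blue) in TCZ than in TC, in 10 classes of gene length labelled by the median length in bases. The share that rose runs from 41.6% in the shortest class to 20.9% in the longest, and the share that fell from 13.0% to 47.1%.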

How the data were processed

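Per the file headers, the deposited table gives raw counts per gene, gene lengths and RPKM values of 6 libraries. The submitters' processing notes name build mm10, bcl2fastq, HTSeq and the aligner HISAT2 2.1.0. Strandedness of the counting, the annotation and any filter are not stated, so overlapping genes are uncertain. The deposited RPKM values were used only to check the counts and gene lengths.

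Counts were tested with edgeR 4.0.16 in R 4.3.3. The low-count filter (filterByExpr, minimum count 10) kept 18563 of 48897 genes. TMM scaled the library totals, all 6 libraries entered 1 model with group as the factor, which left 3 residual degrees of freedom, and TCZ was contrasted with TC by the quasi-likelihood test (glmQLFit, glmQLFTest). P-values were adjusted by Benjamini-Hochberg over all genes tested, with a threshold of 0.05, and the biological coefficient of variation was 7.38%. Standard errors (SE) are the log2 change divided by the square root of the test's F. Intervals and floors of count ratios cover counting error only. A run on simulated counts changed only a small share of genes, so it could not test the scaling where many genes change.

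Gene lists (29 of pathways and 7 of markers, 969 genes, 926 tested) and the genes named were chosen with earlier results of these data known. The naming rule took the 12 largest rises and 12 largest falls among passing genes that code for protein, average 10 CPM or more and show no overlap between libraries, 2 members of each pathway list by size of change, 10 genes of the TNF death pathway, and 5 genes per direction with at most 3 counts in 1 group. Other members of the lists were named after their values were seen, and some genes are not reported here. Where a symbol of the lists differed from the table, an older symbol was used. Promoters came from RefSeq (GRCm38.p6) by gene identifier and matched 12785 of 18563 genes tested (68.9%). Alternatives were DESeq2 1.42.0, limma-voom 3.58.1, RLE size factors, library totals, other filters, a fit of TC and TCZ alone, the replicate number as a block, a term for control 2 and TCZ 2, thinning to equal depth, and leaving out libraries.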

Additional observations from a re-analysis of the deposited data

How the results depend on the processing

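The count of genes passing lay between 8639 and 10832 over the 17 alternative fits, against 10414, and no shared call changed sign in any of them. Asking for a change of at least 2-fold beside the adjusted p left 4327 genes. With a filter of 50 counts in 2 libraries, 13432 genes were tested and 1156 were at least 2-fold higher, against 2149. In the main fit, genes at least 2-fold higher had a median of 0.337 CPM in TC. For genes at least 2-fold lower it was 5.26, so many of the large rises were in genes of low counts. Leaving out 1 library gave between 8639 and 10335 passing genes. With library totals alone, 4837 genes were higher and 5746 lower, and the median of all genes moved to -0.04.

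Whether the replicate numbers pair the libraries is not stated. The difference between replicates 1 and 2 correlated across genes at -0.04 between TC and TCZ, 0.01 between control and TC and 0.22 between control and TCZ. A correlation over all genes, many of them low, cannot decide this. With the replicate number as a block, 10435 genes passed.

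Calls of genes named here that were lost, beside those given above, were COX3 (adjusted p = 0.0827), ATP8 (0.102) and Tfeb (0.0681) with DESeq2, ATP8 with limma-voom (0.0602), Casp9 with a term for control 2 and TCZ 2 (0.0587) or without TCZ 2 (0.126), ATP8 without TCZ 2 (0.0539), Snhg3 without TCZ 1 (0.197), and Tfeb without TCZ 1 (0.265), without TC 2 (0.135) or without control 1 (0.0512), at equal depth (0.0661) and in the fit of TC and TCZ alone (0.0743). The cause was not tested. With 2 libraries per group, changes in genes of a few counts carry large standard errors.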
